A study of Homo sapiens with 60 samples.

Results

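CD200, SLC14A1, LINC00261, GABRP, SPEG and AKAP7 are 6 of the 60675 genes counted in HT29 cells, and all 6 were among the 16763 genes that passed the filter on low counts. They were chosen by their lower counts at the high dose of several herbal extracts, against a baseline the choice does not name. Those high-dose values are therefore given below as a description with no test. HT29 is a human colorectal adenocarcinoma cell line. The cells were exposed for 24 h to 1 of 8 extracts of digestive herbal medicines at 3 doses or to vehicle, and total RNA was sequenced. Bojungikgi-tang, with 2 libraries at each dose, and Sayeok-tang, with 3, are formulas of several herbs extracted in water. Extracted in 70% ethanol were skullcap root (Scutellariae Radix), Pinelliae Tuber, dried ginger (Zingiberis Rhizoma) and fresh ginger (Zingiberis Rhizoma Recens), each with 3 libraries at every dose. Jujube fruit (Zizyphi Fructus) and Coptidis Rhizoma, also in ethanol, had 1 library at every dose. High, medium and low dose were 500, 100 and 20 µg/mL, except for Coptidis Rhizoma with 320, 64 and 12.8 µg/mL. The 3 vehicle libraries carry 0.1% DMSO in the labels and 2% in the series text. The labels do not say that replicates came from separate cultures, so the p-values measure only the spread between libraries.

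These genes belong to unrelated pathways. CD200 is a membrane glycoprotein of the immunoglobulin superfamily that restrains myeloid cells through its receptor CD200R1. SLC14A1 is the urea transporter UT-B, a channel that lets urea cross the membrane down its gradient, and GABRP encodes the pi subunit of the GABA-A receptor, a chloride channel subunit found mainly in epithelia outside the brain. AKAP7 tethers protein kinase A, the cAMP-dependent kinase, near membranes. SPEG is a kinase of the myosin light chain kinase family, best known from striated muscle. LINC00261 is a long non-coding RNA of endoderm-derived tissues and lies beside FOXA2, the gene of a forkhead factor of endoderm.

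On GRCh38, with the gene models of GENCODE 29, the 6 genes lie on 6 chromosomes. CD200 (ENSG00000091972) spans chr3:112332347-112362812 on the plus strand. SLC14A1 (ENSG00000141469) spans chr18:45687025-45752520, GABRP (ENSG00000094755) chr5:170763350-170814047, SPEG (ENSG00000072195) chr2:219434846-219498287 and AKAP7 (ENSG00000118507) chr6:131135666-131283535, all on the plus strand. LINC00261 (ENSG00000259974) spans chr20:22547671-22578642 on the minus strand. Antisense and other annotated genes overlap CD200, SLC14A1, GABRP, SPEG and AKAP7, each with a median expected count of 0 to 2 per library, while the 6 genes had medians of 113.5 (SPEG) to 411.5 (GABRP).

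The genes having been chosen for falling at the same doses, the 250 bases before each annotated start were read from the RefSeq promoter table (GRCh38.p14), which held 10 starts for the 6 genes. The windows below are those of the genes in which a searched motif was found, with each match in capitals. They are written 5′ to 3′ along the gene's own strand, and each ends at the base before the start of transcription.
CD200, chr3:112332906-112333155, plus strand: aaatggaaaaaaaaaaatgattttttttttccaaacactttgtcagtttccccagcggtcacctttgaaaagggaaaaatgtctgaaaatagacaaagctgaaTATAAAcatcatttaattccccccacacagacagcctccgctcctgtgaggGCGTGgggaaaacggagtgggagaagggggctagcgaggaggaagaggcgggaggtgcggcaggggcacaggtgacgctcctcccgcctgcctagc
SLC14A1, start 2, chr18:45726703-45726952, plus strand: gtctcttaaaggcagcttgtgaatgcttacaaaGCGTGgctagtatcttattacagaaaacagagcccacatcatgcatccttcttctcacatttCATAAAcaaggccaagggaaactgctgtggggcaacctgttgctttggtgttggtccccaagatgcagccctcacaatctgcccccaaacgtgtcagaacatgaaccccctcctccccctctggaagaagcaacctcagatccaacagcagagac
LINC00261, chr20:22578643-22578892, minus strand: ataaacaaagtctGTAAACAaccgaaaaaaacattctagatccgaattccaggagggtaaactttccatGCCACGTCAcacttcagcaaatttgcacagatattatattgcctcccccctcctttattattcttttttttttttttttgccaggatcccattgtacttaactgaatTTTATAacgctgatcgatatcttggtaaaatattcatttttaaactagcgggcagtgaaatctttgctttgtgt
AKAP7, start 1, chr6:131135217-131135466, plus strand: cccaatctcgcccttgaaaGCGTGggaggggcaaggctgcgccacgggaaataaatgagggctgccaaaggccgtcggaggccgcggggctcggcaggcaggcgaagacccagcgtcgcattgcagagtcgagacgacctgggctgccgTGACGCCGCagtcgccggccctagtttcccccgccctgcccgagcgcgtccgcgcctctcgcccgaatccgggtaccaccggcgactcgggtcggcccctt
The motifs were searched on both strands. CD200 held GCGTG, the core letters of the aryl hydrocarbon receptor element, with its first letter 96 bases before the start, and the TATA letters TATAAA at 147 bases. GCGTG also stood in the SLC14A1 window, at 217 bases, beside a match to the CDX letters TTTATG on the other strand at 155 bases, and in the AKAP7 window at 231 bases. It is common, being in 32.2% of the 35116 promoters of the same length. LINC00261 held the forkhead letters TGTTTAC on the other strand 237 bases before its start, a match found in 3.0% of all promoters. It also held the antioxidant element TGACNNNGC (10.9% of promoters) at 181 bases and TATAAA (10.7%) at 74 bases, both on the other strand, and AKAP7 held TGACNNNGC at 101 bases. CDX letters were in 9.6% of promoters. The other 6 starts, 1 each of SLC14A1, GABRP and AKAP7 and 3 of SPEG, held no match to any motif searched. Besides those already named, the search covered a further forkhead form, TGTTTGC. It also covered CAAAGTCCA for HNF4. For AP-1 the letters were TGANTCA and for TCF/LEF they were CTTTGAT. For NF-kB only the form GGGA, then NN, then TTCC was searched, which 1.4% of promoters held. No 2 matches overlapped in these windows, and no motif was shared by all 6 genes. A match says only that the letters are there. GC content differed widely, from 34.8% before LINC00261 to 82.8% before start 2 of SPEG, against a median of 58.0% over all promoters.

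The libraries held 18.02 to 35.82 M counts (M, 1e6), so that a level of 1 CPM (a gene's count scaled to a library of 1e6 counts) stood for 18 to 36 counts. Intestinal epithelial markers were present: 10 of 10 passed the filter, and their summed level was 9220 to 14900 CPM. Summed markers of fibroblasts (1.56 to 3.42 CPM), endothelium (0.471 to 3.08) and muscle (0.903 to 2.28) were near 0. The 8 immune cell markers summed to 1080 to 2310 CPM, almost all of it LYZ, and PTPRC, CD3E and MS4A1 had a median of 0. In bulk RNA, fewer cells of a type and less RNA per cell cannot be told apart. Of the 54 libraries in the fit, 3 stood apart in the share of ribosomal protein or mitochondrial counts: vehicle replicate 1 (7.20% ribosomal protein), Scutellariae Radix low-dose replicate 3 (9.35% ribosomal protein) and Pinelliae Tuber high-dose replicate 2 (14.3% mitochondrial). Some of the results that rest on them are also given without them, and the others are given only with them. The differences of the chosen genes from vehicle are given only with vehicle replicate 1 included.

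In vehicle, per kilobase of annotated exon, GABRP (3.36 CPM per kb), CD200 (3.26), LINC00261 (3.13) and AKAP7 (2.84) had similar levels. SLC14A1 stood at 1.15 CPM per kb and SPEG at 0.284, the lowest of the 6. All were modest transcripts, and SPEG had the fewest counts and the widest relative spread.

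At the high dose, which chose the genes, the lowest levels of the replicated groups were those of Scutellariae Radix and Zingiberis Rhizoma. CD200 had 8.93, 9.68 and 10.6 CPM in the vehicle libraries, 2.54, 2.25 and 2.36 CPM at the high dose of Scutellariae Radix, and 3.48, 3.02 and 3.38 CPM at that of Zingiberis Rhizoma. The fitted log2 difference from vehicle was -2.03 ± 0.10 (SE) for Scutellariae Radix and -1.56 ± 0.09 for Zingiberis Rhizoma, or 24.4% and 33.8% of the vehicle level. At the high dose CD200 was below every vehicle library in each of the 6 replicated extracts, with means from 2.38 ± 0.145 (SD, n = 3) to 8.12 ± 0.244 CPM (n = 2, Bojungikgi-tang).

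The urea transporter SLC14A1 had 8.14, 8.67 and 7.98 CPM in vehicle. It had 2.99, 2.29 and 3.24 CPM at the high dose of Scutellariae Radix and 2.32, 2.89 and 3.43 CPM at that of Zingiberis Rhizoma, and these 2 groups overlapped. Their log2 differences from vehicle were -1.54 ± 0.11 and -1.53 ± 0.11. The water extracts Sayeok-tang (-0.63 ± 0.11) and Bojungikgi-tang (-0.59 ± 0.12) and fresh ginger (-0.59 ± 0.10) lay close to each other on SLC14A1, and Pinelliae Tuber was nearest to vehicle (-0.15 ± 0.10). AKAP7, the kinase anchor, had the tightest vehicle values of the 6, at 12.5, 12.4 and 12.6 CPM. At the high dose of Zingiberis Rhizoma it had 5.46, 5.96 and 5.87 CPM and at that of Scutellariae Radix 5.18, 5.92 and 6.36 CPM, again overlapping, with log2 differences of -1.12 ± 0.09 and -1.09 ± 0.09. Sayeok-tang was next lowest in AKAP7 at the high dose (7.68, 8.82 and 8.10 CPM).

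LINC00261 was the most counted of the 6 in vehicle, with 15.9, 18 and 18.2 CPM. At the high dose it was 6.95, 7.05 and 6.59 CPM with Scutellariae Radix and 7.52, 6.81 and 7.66 CPM with Zingiberis Rhizoma. The log2 differences from vehicle were -1.34 ± 0.11 and -1.25 ± 0.11, and those of the other 4 replicated extracts were -0.20 to -0.31. Every library of 5 of the 6 high-dose groups was below every vehicle library. The exception was Pinelliae Tuber, where replicate 1 had 16.0 CPM and the lowest vehicle library 15.9 CPM.

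GABRP and SPEG followed the others less closely. For GABRP, the receptor subunit, Scutellariae Radix (3.65, 3.76 and 4.38 CPM at the high dose) and Zingiberis Rhizoma (12.7, 13.1 and 12.6) had every library below the vehicle values of 16.3, 14.6 and 15.7 CPM. The log2 difference was -1.97 ± 0.09 with Scutellariae Radix but -0.27 ± 0.08 with Zingiberis Rhizoma, under which CD200 stood at -1.56. Every GABRP library was above vehicle at all 3 doses of Pinelliae Tuber: 20.8, 20.9 and 20.2 CPM at the low dose, 21.6, 22.9 and 22.8 at the medium, and 22.3, 21.1 and 24.4 at the high dose (log2 difference at the high dose 0.54 ± 0.08). So it was at the low, medium and high dose of Bojungikgi-tang (18.8 to 19.2, 17.9 to 18.5 and 16.3 to 16.9 CPM, the last by less than the rounding), the low dose of Zingiberis Rhizoma (mean 18.2) and Sayeok-tang (18.1) and the medium dose of Zingiberis Rhizoma Recens (17.7). SPEG had 5.05, 6.03 and 4.18 CPM in vehicle, 1.12, 1.69 and 1.26 with high-dose Scutellariae Radix and 3.05, 2.54 and 2.14 with high-dose Zingiberis Rhizoma, and in the other 4 replicated extracts its high-dose libraries overlapped vehicle. Pinelliae Tuber high-dose replicate 2, the library with 14.3% mitochondrial counts, had 8.92 CPM of SPEG, the highest of all, while replicates 1 and 3 had 4.59 and 4.75 CPM.

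**Figure D1:**
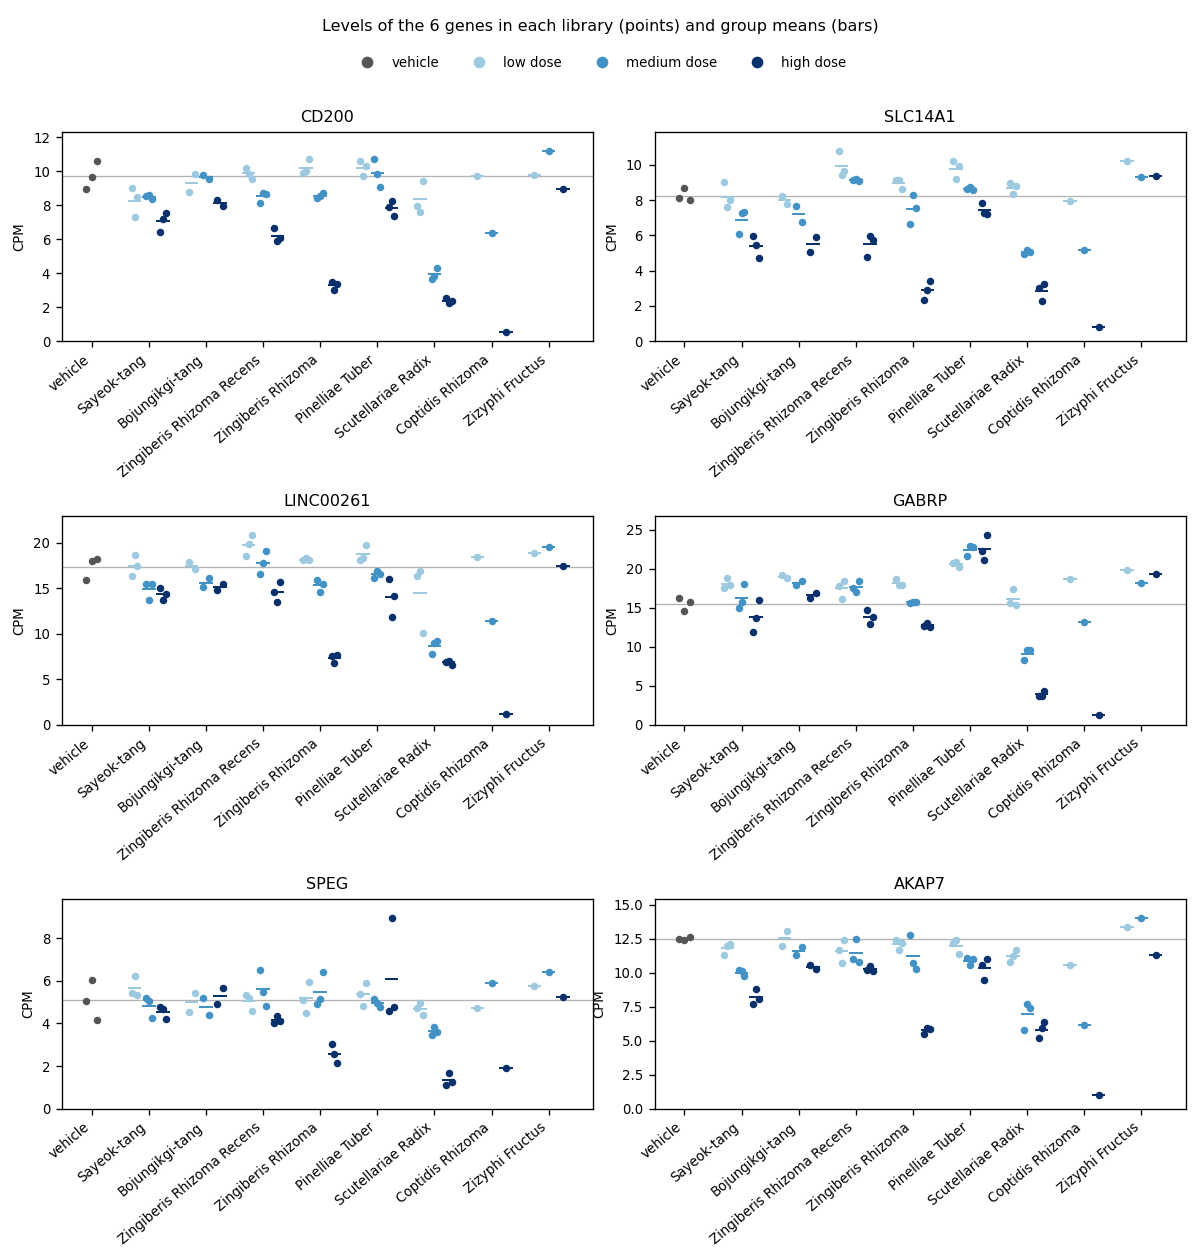
CPM (y axis, from 0) of each of the 6 genes in vehicle and in each extract (x axis), with 1 point per library, a bar at each group mean, shades of blue for dose and a grey line at the vehicle mean. Scutellariae Radix steps down from low to medium dose in CD200 (means of 8.35 and 3.93 CPM), whereas Zingiberis Rhizoma, with 8.40 to 8.72 CPM at the medium dose, is just below the lowest vehicle library (8.93) and drops to 3.02 to 3.48 CPM at the high dose.

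Coptidis Rhizoma had 1 library per dose, so its values have no test. Of these libraries the low-dose one had 15.2% mitochondrial counts, 20.6 median absolute deviations from the median library and past the limit of 10 used here, so it stands apart too. The high-dose one had 3.44% mitochondrial and 6.69% ribosomal protein counts, 9.95 and 9.3 deviations off and just within that limit. With 1 library per dose no value without them can be given, and the part of these shares in the levels was not tested. At its high dose 5 of the genes had their lowest level of all 60 libraries. These were CD200 at 0.533 CPM (exact Poisson 95% interval 0.291 to 0.893), SLC14A1 at 0.799 (0.494 to 1.22), AKAP7 at 1.03 (0.677 to 1.49), LINC00261 at 1.14 (0.770 to 1.63) and GABRP at 1.29 CPM (0.896 to 1.81). SPEG had 1.90 CPM (1.41 to 2.51), above the 1.12 to 1.69 CPM of high-dose Scutellariae Radix. The intervals cover counting error only, on 14 to 50 expected counts. On the log2(CPM + 0.5) scale the 6 lay 1.22 (SPEG) to 3.44 (LINC00261) below the vehicle mean. All 6 of 6 were past 2-fold lower, as were 6.28% of all genes tested. Coptidis Rhizoma may be among the extracts whose high dose chose the genes, so this count and these low levels may be set by the choice. With the medium dose 0 of 6 were past 2-fold lower (0.668% of genes), although AKAP7, at 6.18 CPM (5.14 to 7.38), was at -0.96. With the low dose of Coptidis Rhizoma 0 of 6 were past it (0.358% of genes), as with the 3 doses of Zizyphi Fructus (0.435%, 0.298% and 0.298%), whose levels were 8.96 to 11.2 CPM for CD200 and 18.2 to 19.9 CPM for GABRP.

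Ordered by group mean, most neighbouring groups overlapped. Among the 18 neighbouring pairs of the 19 replicated groups, the libraries overlapped in 14 for CD200, 15 for SLC14A1, 16 for LINC00261, 13 for GABRP, 15 for SPEG and 17 for AKAP7. The gaps lay mainly at the lower end. For CD200, high-dose Zingiberis Rhizoma Recens (lowest library 5.92 CPM), medium-dose Scutellariae Radix (3.64 to 4.32), high-dose Zingiberis Rhizoma (3.02 to 3.48) and high-dose Scutellariae Radix (highest library 2.54) each stood clear of the next. For AKAP7 the 1 gap lay between medium-dose (9.75 CPM at the lowest) and high-dose Sayeok-tang (8.82 at the highest).

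The high dose having chosen the genes, the medium dose against the low dose of the same extract was tested, a contrast that holds no high-dose library. The low-dose libraries may have served as a baseline in the choice, so the test is not fully independent of it. In Scutellariae Radix 5 of the 6 genes fell between the low and the medium dose, where 2.08% of all genes tested fell. CD200 had 7.97, 7.62 and 9.45 CPM at the low dose and 3.64, 3.84 and 4.32 CPM at the medium dose. The groups stood well apart, and the log2 change was -1.07 ± 0.09 (SE; edgeR's quasi-likelihood test, Benjamini-Hochberg adjusted p = 9.47e-12), which left 47.5% of the low-dose level. GABRP had 15.6, 17.4 and 15.4 CPM at the low dose and 8.32, 9.59 and 9.54 at the medium. Its log2 change was -0.82 ± 0.08 (edgeR adjusted p = 1.56e-09).

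SLC14A1 went from 8.96, 8.37 and 8.82 CPM at the low dose of Scutellariae Radix to 4.95, 5.15 and 5.07 CPM at the medium dose, with little spread in either group. The log2 change was -0.78 ± 0.11 (edgeR adjusted p = 1.63e-06). AKAP7 went from 10.8, 11.2 and 11.7 CPM to 5.82, 7.69 and 7.38 CPM (-0.68 ± 0.09, edgeR adjusted p = 4.33e-07). LINC00261 had 16.3, 16.9 and 10.1 CPM at the low dose and 7.73, 8.99 and 9.20 at the medium dose (-0.75 ± 0.11, edgeR adjusted p = 8.55e-06). The low value of LINC00261, 10.1 CPM, belongs to replicate 3, the library with 9.35% ribosomal protein counts, and without that library the log2 change was -0.94. SPEG had 4.73, 4.95 and 4.38 CPM at the low dose and 3.45, 3.84 and 3.60 at the medium dose, a log2 difference of -0.37 ± 0.17 that did not pass (edgeR adjusted p = 0.214). All medium-dose libraries lay below all low-dose libraries in 6 of 6 genes, as they did in 7.88% of genes tested. The same held for 4 of 6 genes in Sayeok-tang (8.30% of genes tested), Zingiberis Rhizoma (4.74%) and Bojungikgi-tang (19.6%, with 2 libraries per dose), 3 in Pinelliae Tuber (5.70%) and 2 in Zingiberis Rhizoma Recens (4.22%), with the smaller differences given below. The calls ended when edgeR was fitted to these 6 libraries alone, with adjusted p from 0.129 to 0.563 for the 5 genes and 7 calls among all genes; without low-dose replicate 3 the fit of the remaining 5 libraries called all 5 again, with adjusted p from 1.13e-08 to 0.000102.

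The other 5 replicated extracts gave 0 of 6 calls between medium and low dose in edgeR's test, and DESeq2 gave 0 as well. Among all genes edgeR called 0% in Sayeok-tang, Bojungikgi-tang and both gingers, and 0.0358% in Pinelliae Tuber. At an unadjusted p under 0.05 in edgeR's test, 4 of 6 genes were lower in Zingiberis Rhizoma, 3 in Sayeok-tang and 1 in Zingiberis Rhizoma Recens. In Bojungikgi-tang and Pinelliae Tuber 0 were. Of all genes, 2.93%, 2.38%, 1.60%, 2.05% and 2.05% passed it in either direction, in the same order. The log2 differences were small: in Zingiberis Rhizoma they ran from -0.26 ± 0.10 for SLC14A1 to 0.08 ± 0.16 for SPEG. For CD200 the 95% interval of the log2 difference was -0.41 to -0.10 in Zingiberis Rhizoma, -0.37 to -0.05 in Zingiberis Rhizoma Recens, -0.12 to 0.21 in Sayeok-tang, -0.14 to 0.25 in Bojungikgi-tang and -0.20 to 0.11 in Pinelliae Tuber. None of these intervals reached the -1.07 of Scutellariae Radix.

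At the low dose itself no replicated extract had every library of CD200, SLC14A1, LINC00261, GABRP or SPEG below vehicle. Every low-dose library was above vehicle for GABRP in 4 of the 6 replicated extracts, as given above, for SLC14A1 in Zingiberis Rhizoma Recens (9.45 to 10.8 CPM) and Pinelliae Tuber (9.19 to 10.2), and for LINC00261 in Zingiberis Rhizoma Recens (18.5 to 20.9). AKAP7 differed, since its 3 vehicle values lay within 12.4 to 12.6 CPM and 5 of 6 low-dose groups had every library below them, by less than the rounding in places, with group means of 11.2 ± 0.432 CPM (SD, n = 3) or more. These levels are a description, and all comparisons with vehicle share the same 3 libraries.

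Extracts were compared at the medium dose, 100 µg/mL, only within sets of samples whose labels carry the same code number, since the vehicle libraries carry another code than any extract, so that code and treatment cannot be told apart in a contrast with vehicle. Scutellariae Radix and Pinelliae Tuber share such a set. CD200 had 10.7, 9.86 and 9.08 CPM with medium-dose Pinelliae Tuber, against the 3.64 to 4.32 CPM of Scutellariae Radix given above. The log2 difference, Scutellariae Radix minus Pinelliae Tuber, was -1.32 ± 0.09 (edgeR adjusted p = 2.51e-15). For GABRP, with 21.6, 22.9 and 22.8 CPM in Pinelliae Tuber, it was -1.29 ± 0.08 (edgeR adjusted p = 2.55e-16). This difference holds both the higher level with Pinelliae Tuber and the lower level with Scutellariae Radix.

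LINC00261 (-0.93 ± 0.11, edgeR adjusted p = 3.77e-08), SLC14A1 (-0.77 ± 0.10, 9.40e-07) and AKAP7 (-0.64 ± 0.08, 6.81e-07) were also lower with Scutellariae Radix, making 5 of 6, where 1.67% of all genes were called lower. Pinelliae Tuber had 16.1 to 16.9 CPM of LINC00261, 8.57 to 8.73 CPM of SLC14A1 and 10.6 to 11.1 CPM of AKAP7 at this dose, and all 3 ranges lay above those of Scutellariae Radix. SPEG, with 5.16, 4.97 and 4.79 CPM in Pinelliae Tuber, differed by -0.45 ± 0.17 and did not pass (edgeR adjusted p = 0.203). Without the 3 libraries that stand apart SPEG passed too (edgeR adjusted p = 0.00868). In Sayeok-tang against Bojungikgi-tang, and in fresh against dried ginger, edgeR called 0 of 6 genes and 0% of all genes at the medium dose, and DESeq2 called 0 of 6. At an unadjusted p under 0.05, CD200 and AKAP7 were lower in Sayeok-tang than in Bojungikgi-tang, and SLC14A1, LINC00261 and GABRP were higher in fresh than in dried ginger (log2 0.28 ± 0.10, 0.22 ± 0.10 and 0.17 ± 0.08). Of all genes, 2.15% and 2.62% passed it in either direction in these 2 comparisons.

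**Figure D2:**
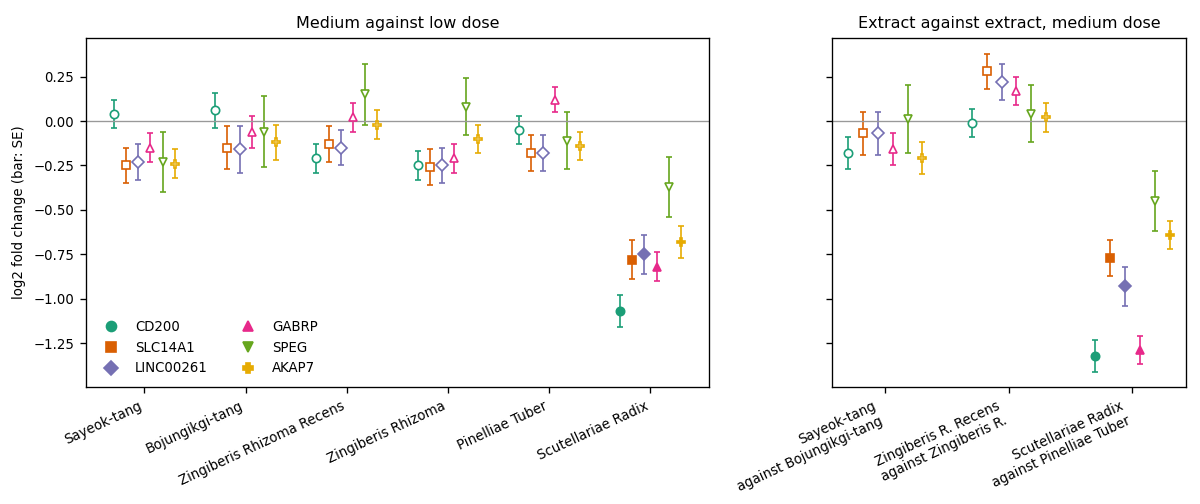
Log2 fold change (y axis) of the 6 genes between the medium and low dose of each replicated extract (left) and between extracts at the medium dose (right), with bars of 1 SE; filled symbols have an adjusted p under 0.05. The filled symbols are those of 5 genes in Scutellariae Radix and in its comparison with Pinelliae Tuber, with CD200 lowest at -1.07 and -1.32.

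Whether the step from low to medium dose differed between Scutellariae Radix and Pinelliae Tuber was tested as an interaction. CD200 (-1.03 ± 0.12 on the log2 scale, edgeR adjusted p = 2.35e-07) and GABRP (-0.93 ± 0.11, 2.70e-07) differed most, and these 2 calls held in every alternative run. SLC14A1 (-0.60 ± 0.14, edgeR adjusted p = 0.0326) and AKAP7 (-0.54 ± 0.12, 0.0117) were also called, making 4 of 6 genes lower, where 0.203% of all genes were. LINC00261 (-0.57 ± 0.15, edgeR adjusted p = 0.0731) and SPEG (-0.26 ± 0.24, 0.831) did not pass. The SLC14A1 and AKAP7 calls ended without a filter on low counts (edgeR adjusted p = 0.135 and 0.144), and both ended without Scutellariae Radix medium-dose replicate 1 (0.093 and 0.0938) or Pinelliae Tuber low-dose replicate 3 (0.065 and 0.0608). Without Scutellariae Radix low-dose replicate 3, LINC00261 was called (edgeR adjusted p = 7.38e-05). For Sayeok-tang against Bojungikgi-tang and for fresh against dried ginger, edgeR gave 0 of 6 calls and 0% of all genes and DESeq2 0 of 6, with 0 and 1 (GABRP, log2 0.23 ± 0.11) at an unadjusted p under 0.05.

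**Figure D3:**
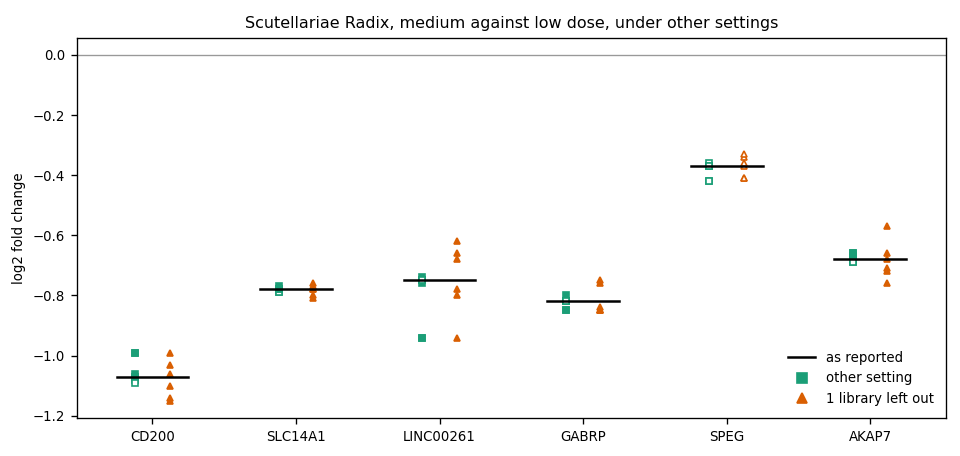
Log2 fold change (y axis) between the medium and low dose of Scutellariae Radix for each of the 6 genes (x axis): a black line for the value reported, squares for other settings of the analysis and triangles for fits with 1 library left out, filled where the adjusted p is under 0.05. Values stay below 0 for all 6 genes, and LINC00261 spreads most, from -0.94 to -0.62 with 1 library left out.

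The pathways around each gene were read from lists of 84 tested genes at the high dose against vehicle. CD200 has its inhibitory receptor on other cells, and CD200R1 and CD200R1L had a median of 0 CPM in these libraries. Of the 10 tested genes of the CD200 and immune ligand list, 3 rose and 3 fell with Scutellariae Radix, where 11.4% of all genes rose and 12.1% fell, and the list's median log2 difference was -0.13 against -0.023 over all genes. The checkpoint ligand CD274 rose by 0.92 ± 0.22 (edgeR adjusted p = 0.00138) and the poliovirus receptor PVR by 0.30 ± 0.06 (0.000195), while the galectin LGALS9 fell by 0.56 ± 0.12 (0.00034). With Zingiberis Rhizoma 1 of the 10 was called, where 6.79% of all genes rose and 6.33% fell. It was LGALS9 (-0.33 ± 0.12, edgeR adjusted p = 0.0481), and the call ended without vehicle replicate 1 or 2 or any 1 of the Zingiberis Rhizoma high-dose libraries (0.0943 to 0.19). CD274 was the least expressed of these, at 0.832 CPM in vehicle.

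Of the 7 tested genes of urea and water transport and urea synthesis, 1 rose and 1 fell with Scutellariae Radix. With Zingiberis Rhizoma 2 rose and 2 fell. The shares of all genes were 11.4% higher and 12.1% lower with Scutellariae Radix, and 6.79% and 6.33% with Zingiberis Rhizoma. The second urea transporter gene, SLC14A2, had a median of 0 CPM. The water channel AQP5, at 53.4 CPM in vehicle, was lower in Zingiberis Rhizoma (-0.79 ± 0.11, edgeR adjusted p = 1.15e-06) and Scutellariae Radix (-0.69 ± 0.11, 6.54e-06), and with smaller differences in Sayeok-tang (-0.45 ± 0.11, 0.0147) and Zingiberis Rhizoma Recens (-0.43 ± 0.11, 0.0141). The latter 2 calls ended without vehicle replicate 1 (edgeR adjusted p = 0.215 and 0.191). The arginase ARG2, which makes urea, rose by 0.83 ± 0.16 with Scutellariae Radix (edgeR adjusted p = 0.000196).

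Among GABA receptor and GABA metabolism genes 10 were tested, and most other GABA-A subunits had a median of 0 CPM. GABRE, the epsilon subunit, had 68.9 CPM in vehicle, and GABRA2 and GABRA3, the other two that passed the filter, 0.299 and 0.265 CPM. With Scutellariae Radix 1 of the 10 rose and 2 fell, where 11.4% of all genes rose and 12.1% fell. ALDH5A1, which oxidises the GABA breakdown product succinic semialdehyde, fell by 0.41 ± 0.08 (edgeR adjusted p = 0.00025), and ABAT, the GABA transaminase, fell by 1.19 ± 0.35 (0.0111), a call that ended without vehicle replicate 1 (0.0936). Of 18 tested genes of protein kinase A and its anchors, 3 rose and 1 fell with Scutellariae Radix, against the same shares of all genes. Here the anchors AKAP12 (0.75 ± 0.12, edgeR adjusted p = 8.38e-06) and AKAP2 (1.14 ± 0.23, 0.000289) rose while AKAP7 was lower. With Zingiberis Rhizoma 1 of 18 rose (PKIB, an inhibitor of the kinase, 0.51 ± 0.12, edgeR adjusted p = 0.00245), where 6.79% of all genes rose. Of 7 tested kinase relatives and muscle partners of SPEG 1 rose and 1 fell in each of these extracts, where 23.6% and 13.1% of all genes were called. KALRN fell in both (-0.27 ± 0.07 and -0.28 ± 0.07), and both calls ended without a filter on low counts (edgeR adjusted p = 0.0733 and 0.0854).

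LINC00261 lies 2363 bases from FOXA2, its nearest tested neighbour, on the same strand. FOXA2 had 12.3, 11.7 and 10.3 CPM in vehicle, 6.09 to 6.52 CPM with high-dose Zingiberis Rhizoma and 7.09 to 7.55 CPM with high-dose Scutellariae Radix. It was below vehicle in both, by 0.87 ± 0.18 (edgeR adjusted p = 0.000665) and 0.65 ± 0.17 (0.0046) on the log2 scale, and both calls held in all alternatives run. For LINC00261 the differences in the same groups were -1.25 and -1.34. In Sayeok-tang, Bojungikgi-tang and Zingiberis Rhizoma Recens FOXA2 stood at -0.49 ± 0.17, -0.43 ± 0.19 and -0.38 ± 0.17 and did not pass (edgeR adjusted p = 0.113, 0.361 and 0.167). Part of these differences was present at the low dose. With low-dose Zingiberis Rhizoma FOXA2 had 9.05, 9.87 and 9.19 CPM, each below every vehicle library. Low-dose Sayeok-tang had 8.12, 11.1 and 8.76 CPM, and low-dose replicates 1 and 2 of Scutellariae Radix were also below vehicle. The part of the vehicle's other code was not tested. The 2 genes parted in the libraries that stand apart: Scutellariae Radix low-dose replicate 3 had 14.7 CPM of FOXA2 where replicates 1 and 2 had 8.96 and 9.12, and Pinelliae Tuber high-dose replicate 2 had 18.4 where the other two had 8.66 and 9.41. LINC00261 was at its lowest of the group in each of these 2 libraries (10.1 and 11.9 CPM). In the 1 library of high-dose Coptidis Rhizoma FOXA2 was at 5.33 CPM and LINC00261 at 1.14 CPM.

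**Figure D4:**
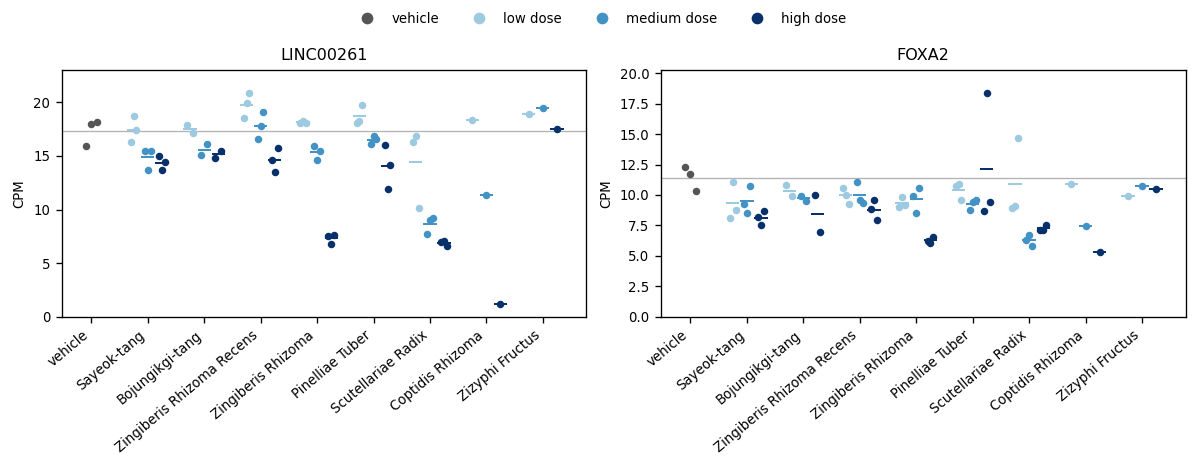
CPM (y axes, from 0) of LINC00261 (left) and its neighbour FOXA2 (right) in each library by extract and dose (x axis), with group means as bars and the vehicle mean as a grey line. Both are low at the high dose of Zingiberis Rhizoma and at the medium and high dose of Scutellariae Radix, and the single FOXA2 points at 14.7 and 18.4 CPM are the 2 libraries that stand apart in those extracts.

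Of the 13 tested endoderm transcription factors, FOXA2 included, 5 fell and 2 rose with Scutellariae Radix, and 2 fell with Zingiberis Rhizoma. Of all genes, 12.1% fell and 11.4% rose with Scutellariae Radix, and 6.33% fell and 6.79% rose with Zingiberis Rhizoma. The list's median log2 difference was -0.44 with Scutellariae Radix and -0.20 with Zingiberis Rhizoma, against -0.023 and -0.013 over all genes. HNF4G fell by 0.47 ± 0.08 with Scutellariae Radix (edgeR adjusted p = 7.04e-06), whereas KLF4, a factor of differentiated epithelium, rose by 0.55 ± 0.10 (5.75e-05). Of the 10 intestinal epithelial markers, 2 rose and 4 fell in each of these extracts, against the shares of all genes just given. The differentiation markers CEACAM5 (0.82 ± 0.15 and 1.07 ± 0.15) and KRT20 (0.48 ± 0.05 and 0.46 ± 0.05) rose with Scutellariae Radix and Zingiberis Rhizoma, and VIL1, villin of the brush border, fell by 0.44 ± 0.04 and by 0.26 ± 0.04. Summed epithelial markers were at 10900 to 14200 CPM at the high dose, reaching below the 12500 to 14100 of vehicle. Most of the sum was KRT8 and KRT18, with means of 7010 and 3910 CPM in vehicle, so it says little of the other markers. Of the 4 tested immune markers CD14 fell by 1.08 ± 0.19 and ITGAM rose by 0.83 ± 0.21 with Scutellariae Radix, and of the 2 tested genes each of the fibroblast, endothelial and muscle lists edgeR and DESeq2 called 0 in any extract, with 5 of 36 tests at an unadjusted p under 0.05 in edgeR.

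In the other 4 replicated extracts few list genes were called: 4 lower in Sayeok-tang, 5 lower in Zingiberis Rhizoma Recens, 6 lower and 2 higher in Pinelliae Tuber and 0 in Bojungikgi-tang, or 4.8%, 6.0%, 9.5% and 0.0% of the 84, where 2.85%, 6.36%, 5.12% and 0.626% of all genes were called. For Bojungikgi-tang 13 of the 84 had an unadjusted p under 0.05 in edgeR, and DESeq2 called 1. Scutellariae Radix had 32 of 84 called (38.1%, background 23.6%) and Zingiberis Rhizoma 17 (20.2%, background 13.1%). Vehicle replicate 1 bore on these counts, which summed to 66 over the 6 extracts and to 35 without it.

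The nearest tested genes on each side of the 6 did not move as one. Of these 12 neighbours, 5 fell with Scutellariae Radix, where 12.1% of all genes fell. With Zingiberis Rhizoma 4 fell and 1 rose, where 6.33% of all genes fell and 6.79% rose. SIGLEC15, a sialic acid-binding lectin gene 72992 bases from SLC14A1, had 3.09 to 3.53 CPM in vehicle and 1.3 to 1.78 CPM with high-dose Scutellariae Radix, a fall of 1.05 ± 0.18 (edgeR adjusted p = 1.84e-05). Its call with Zingiberis Rhizoma (-0.53 ± 0.17, 0.034) ended with any 1 of the 6 libraries left out. DNPEP, an aminopeptidase gene 34824 bases from SPEG, was called lower than vehicle in 5 of the 6 extracts at the high dose, by 0.20 to 0.28. Of these calls 4, all but that in Scutellariae Radix, ended without vehicle replicate 1 (edgeR adjusted p from 0.0505 to 0.376). In Bojungikgi-tang, where it was not called, its high-dose libraries had 68.8 and 67.2 CPM, also below every vehicle library. DNPEP had 74.1 to 82.8 CPM in vehicle. With Zingiberis Rhizoma it had 65.7, 67 and 67.4 CPM at the low dose and 64.1, 64.8 and 66.7 at the high dose. With Scutellariae Radix it had 67.8, 67.1 and 84.4 CPM at the low dose and 65.9, 64.7 and 66 at the high dose. The difference from vehicle was thus largely present at the low dose, and the part of the vehicle's other code was not tested.

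As a description across the 54 libraries, which share treatments and a common scaling, the 15 pairs of the 6 genes had Pearson correlations of log2(CPM + 0.5) from 0.75 to 0.92. With each extract's mean removed (51 libraries) they ran from 0.68 to 0.93. The high-dose libraries by which the genes were chosen are among these, so the values are in part set by the choice. Over the 34 low-dose and medium-dose libraries they ran from 0.58 to 0.89, and over the 28 of these that are not Scutellariae Radix from -0.18 (GABRP with SPEG) to 0.66 (SLC14A1 with LINC00261). Among 11209 genes with a mean log2 CPM above 2, those most like CD200 were NOX1, the NADPH oxidase of colon epithelium (0.95), the surface glycoprotein gene CD24 (0.94) and RASL11A (0.93). SLC14A1 was nearest to ROR1 (0.90), CD200 (0.90) and LMO4 (0.89), and AKAP7 to CD200 (0.92), LINC00261 (0.90) and CD24 (0.90). LINC00261 was nearest to SLC38A11 (0.94), PLD1 (0.93) and COLCA1 (0.92), GABRP to RNF144B (0.94), the potassium channel subunit gene KCNE3 (0.93) and SLITRK6 (0.90), and SPEG to MXD4 (0.91), ATP6V1B1 (0.91) and COLCA2 (0.90).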

How the data were processed

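The 6 genes and the gene lists were chosen with earlier results of these data known. The authors deposited 1 table of RSEM expected counts per Ensembl gene and library; the submitters' processing notes name RSEM 1.3.3, STAR 2.7.3a, Trim Galore 0.6.5, FastQC 0.11.9 and the build hg38. Annotation release, strand setting and gene filters: not given in the sources used here. Of its 270 columns, 60 match these samples and 210 were not used. Of 60675 IDs, 57055 are in GENCODE 29. The libraries (18.02 to 35.82 M counts, median 24.46 M; M, 1e6) had 90.0% to 92.1% whole values, and expected counts were rounded. Of 51 replicate pairs none agreed within sampling noise (lowest chi-square per gene 2.06).

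The fit took the 54 libraries of 19 groups with n of 2 or 3: edgeR 4.0.16 in R 4.3.3, filterByExpr (16763 genes), TMM, dispersion without tagwise values, robust glmQLFit and glmQLFTest, with Benjamini-Hochberg at 0.05 over all genes (35 residual degrees of freedom, common biological coefficient of variation 0.0855, median prior df 6.59). SE is the log2 fold change over the root of F. CPM uses TMM factors. Libraries over 10 median absolute deviations in mitochondrial or ribosomal protein share were said to stand apart. Single libraries were set against the vehicle mean with a pseudocount of 0.5 CPM. Named besides the 6 genes are their nearest tested neighbours with a change, up to 3 genes per list by smallest p at the high dose, and the 3 most correlated genes each; GABRE, GABRA2, GABRA3, SLC14A2, CD200R1 and CD200R1L were named after their levels were seen. Alternatives were DESeq2 1.42.0, its size factors, a fit of the compared libraries alone, no filter, the replicate number as a block, and each library left out; fits without libraries that stand apart, and correlations without high-dose or Scutellariae Radix libraries, were added after the data were seen. Counts were also simulated (16490 genes), with all libraries drawn from the same mean profile and none that stands apart. There the Scutellariae Radix medium against low test called 83% of the genes set to change 1.5-fold and 98% of those set to 2-fold. Of its calls 1.6% were false. The interaction called 58% and 96%, with 7.8% of its calls false. The real libraries vary more, so these rates need not hold for them.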

Additional observations from a re-analysis of the deposited data

Results flagged for a closer look

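In the interaction test, the step from low to medium dose differed between Scutellariae Radix and Pinelliae Tuber for CD200 by -1.03, GABRP by -0.93, SLC14A1 by -0.60 and AKAP7 by -0.54 on the log2 scale, each at an adjusted p under 0.05 in edgeR.

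The libraries of Coptidis Rhizoma and Zizyphi Fructus, 1 per dose, entered no test, and some lay above the highest of the 3 vehicle libraries. With Zizyphi Fructus these were CD200 at the medium dose (11.2 CPM), SLC14A1 at the high, medium and low dose (9.38, 9.33 and 10.2), and LINC00261 at the medium and low dose (19.5 and 18.9). GABRP was above vehicle at its high, medium and low dose (19.3, 18.2 and 19.9 CPM), SPEG at the medium dose (6.39), and AKAP7 at the medium and low dose (14.0 and 13.4). With low-dose Coptidis Rhizoma, the library with 15.2% mitochondrial counts, LINC00261 (18.4 CPM) and GABRP (18.7) were above it.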

How the results depend on the processing

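Of 72 tests of the 6 genes, 14 passed, and none reversed. The 5 calls between medium and low dose of Scutellariae Radix fell to 0 in the fit of only the libraries compared and were 5 with each library left out in turn (5 to 5). The count at the medium dose between extracts stayed at 5 or 6. The interaction count of 4 was 2 with only the libraries compared and 2 to 5 with a library left out. The 66 calls of list genes, summed over the 6 extracts, were 119 without the libraries that stand apart and 139 with only the libraries compared, less those. They were 35 to 122 with 1 library left out (35 without vehicle replicate 1, 104 without Pinelliae Tuber high-dose replicate 2, 122 without Scutellariae Radix low-dose replicate 3). The cause was not tested. Of 47 calls of named list genes and neighbours, 27 held with each library left out.

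Calls over all genes between medium and low dose of Scutellariae Radix (710) were 1025 with DESeq2, 1421 without a filter, 345 to 2900 with 1 library left out and 7 in the fit of the compared libraries alone. Between Scutellariae Radix and Pinelliae Tuber at the medium dose, 512 became 1374 without the libraries that stand apart and 2257 in the fit of the compared libraries alone, and the interaction's 82 became 125 with DESeq2, 214 without a filter, 291 without the libraries that stand apart and 21 with only the libraries compared. Same-numbered replicates correlated by -0.102 to 0.157 after group means were removed, with every pair above 0.1 in 0 of 15 comparisons. This check cannot settle whether same-numbered replicates were handled together. With the replicate number as a block the counts were 5, 5, 4 and 68. Genes at 1 CPM rest on 18 to 36 counts, which limits SPEG most.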
